A study of Mus musculus with 6 samples.

Results

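The genes described here are Batf and 9 partners or relatives of the AP-1 transcription factor: Jun, Junb, Jund, Fos, Fosb, Fosl1, Fosl2, Atf3 and Maff. All 10 were chosen by symbol, each matched 1 row of a table of 23049 rows, and all 10 passed the filter on low values. They were picked with results of these libraries known, and Batf stands among them because of its difference between the treatments. Their differences are therefore given as a description and without a test. The libraries came from F4/80-positive cells sorted from the stomach corpus of mice treated with L635 (3 libraries) or with DMP-777 (3 libraries). Both compounds kill acid-secreting parietal cells, and L635 is an analog of DMP-777 that lacks its effect on neutrophil elastase. Per the labels, L635 served to bring about SPEM (spasmolytic polypeptide-expressing metaplasia) with intestinal features, and DMP-777 plain SPEM. Strain, age, sex, dose, treatment time and the number of animals behind a library are not stated in the labels. No untreated animals were analysed here, and both groups went through the same dispase digestion and sort. Nothing says that the libraries of a group are separate animals, so p-values measure the spread between these libraries, which may be technical.

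AP-1 is a dimer of basic leucine zipper (bZIP) proteins. A JUN protein pairs with a FOS protein or with another JUN, and the pair binds the element TGAGTCA or, in some pairings, the cyclic AMP element TGACGTCA. MAP kinase signals induce Fos, Fosb, Jun, Junb and Atf3 within minutes, which makes them immediate early genes, and the same genes are known to be switched on when tissue is digested into single cells. BATF is a short bZIP protein without a transactivation domain. It pairs with JUN proteins, competes with FOS for them, and recruits IRF4 or IRF8 to composite elements. It is best known for its part in T cells, B cells and dendritic cells.

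Values are on a scale recognised from the data as RPKM, read counts scaled to transcript length and library size, and no value lies below 1, which is called the floor here. Between 11459 and 12955 genes per library lay above that floor. Steps between low values gave estimated depths of 4300000 to 20900000 reads in L635 and of 11400000 to 20900000 reads in DMP-777, where a longer step that scored nearly as well gave 5700000 to 10500000 reads. Of 12102 genes tested with limma on log2(RPKM + 1), 0 had an adjusted p (Benjamini-Hochberg) below 0.05 (0.0%), and 1223 (10.1%) had an unadjusted p below 0.05. Macrophage transcripts were present in every library, with 15 of 15 markers above the floor in at least 1 library and Emr1, the gene of F4/80, at 97.9, 127 and 41.3 RPKM in L635 and 46.1, 88.5 and 94.3 in DMP-777. Transcripts of gastric gland cells were abundant as well, with 12 markers summing to between 3283 and 4196 RPKM in L635 and between 5306 and 12570 in DMP-777. In such bulk samples, fewer cells of a type and less RNA per cell cannot be told apart.

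Batf (chromosome 12, 85686669 to 85709087, plus strand) was the member whose treatments lay apart. It stood at 9.39, 10.96 and 13.7 RPKM in L635 replicates 1, 2 and 3, against 1 (the floor), 2.00 and 1.22 in DMP-777 replicates 1, 2 and 3. Every L635 library was above every DMP-777 library. The means were 11.3 ± 2.16 RPKM in L635 and 1.41 ± 0.526 in DMP-777 (SD, n = 3 each), a ratio of 8.07 with the library on the floor taken at 1. On the log2(RPKM + 1) scale the difference was 2.37 ± 0.44 (SE), the largest positive value of the 12102 tested genes, of which 7 (0.0578%) reached 2. At the estimated depths and an exonic length of 1406 nucleotides, the values correspond to about 115, 66 and 402 reads in L635 and at most 36 reads in any DMP-777 library, or to 58, 33, 201 and at most 18 with the longer step. Batf is the 1 member of 10 whose groups did not overlap. Over all tested genes, 7.25% had L635 entirely above and 8.75% entirely below DMP-777. Since this contrast put Batf on the list, nothing is read from that count.

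**Figure D1:**
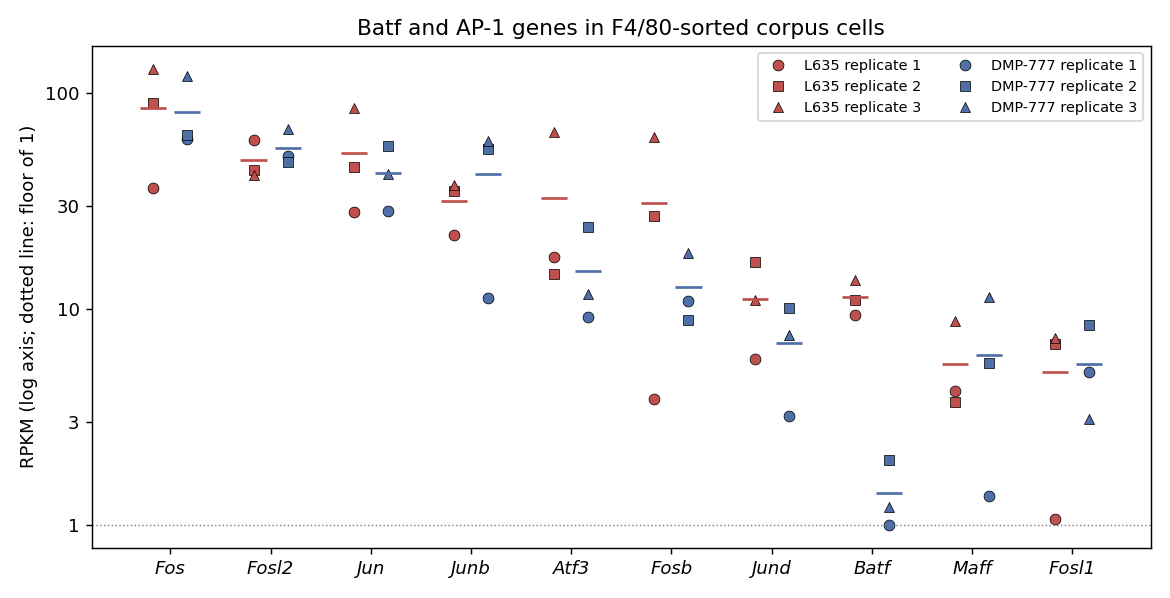
RPKM on a log axis for the 10 genes in each library, with L635 in red left of DMP-777 in blue, a symbol per replicate, a line at each group mean and the floor of 1 dotted. Batf has L635 libraries between 9.39 and 13.7 RPKM and DMP-777 libraries at or below 2.00, while the other 9 genes overlap between the treatments.

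The difference of Batf kept its sign in the 15 alternatives in which it was tested, from 1.499 with a pseudocount of 4 to 3.06 with none. Its groups stayed apart under quantile normalization, median centring and removal of the length and GC trend. The other alternatives kept the order of its values or dropped a library, so they could not bring the groups together. Apart from the covariate fit, they could not change the sign either. Batf ranked between 1 and 7 by log2 fold change, highest positive value first, among the genes tested in each of the 15 alternatives. A filter asking for a value above 1 in all 6 libraries removed Batf, because of the library on the floor.

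Batf sits in a cluster of bZIP genes. Fos (85473890 to 85477273) lies 209.4 kb before it on the same strand, and Jdp2 (85599105 to 85639878), which encodes a repressor of AP-1, lies between them. Within 250 kb of Batf, 5 genes were tested, Batf among them. Fos and Jdp2 had overlapping groups, with log2 fold changes of -0.05 ± 0.44 and 0.23 ± 0.49 (SE). Jdp2 stood at 7.66, 8.25 and 7.97 RPKM in L635 and 8.66, 2.68 and 11.4 in DMP-777. On the far side, 0610007P14Rik was at 19.1, 8.6 and 11.2 RPKM in L635 and 23.2, 19.7 and 21.6 in DMP-777, entirely lower in L635 (log2 fold change -0.76, limma adjusted p = 0.497). Ttll5, a tubulin glutamylase, had -0.29, and the transporter gene Mfsd7c was close to the floor and not tested. None of these neighbours had L635 entirely above DMP-777, beside 7.25% of all tested genes. With so few neighbours, nothing is read from that.

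The DNA just before these genes is shown for Batf and Fos, which lie in the same bZIP cluster, and for Jun and Maff, which hold longer AP-1 type elements. The sequences are from RefSeq on GRCm38.p6, the build the deposited gene positions match, and end at the base before the gene start, taken from RefSeq for Fos, Jun and Maff. For Batf the RefSeq start (85686720) lies inside the gene as the deposited table has it, so its sequence ends before the deposited start (85686669). Capitals mark TGACGT, TGACGTCA or TGACATCA.
Batf, chr12:85686549-85686668, plus strand: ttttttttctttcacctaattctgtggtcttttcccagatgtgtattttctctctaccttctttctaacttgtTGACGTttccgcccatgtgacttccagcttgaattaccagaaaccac
Fos, chr12:85473800-85473889, plus strand: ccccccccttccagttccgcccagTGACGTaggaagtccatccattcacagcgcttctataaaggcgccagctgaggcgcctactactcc
Jun, chr4:95052223-95052312, minus strand: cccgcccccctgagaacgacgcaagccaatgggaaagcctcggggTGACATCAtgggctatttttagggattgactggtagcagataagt
Maff, chr15:79347430-79347519, plus strand: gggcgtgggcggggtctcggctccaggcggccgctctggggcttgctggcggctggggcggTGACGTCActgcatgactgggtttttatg

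RefSeq gave 11 promoter windows (250 bases before to 50 after a start) for 9 of the 10 genes, 3 of them for Maff, and none was used for Fosl1. The 6 letters TGACGT, searched on both strands, were in windows of Batf, Fos, Atf3 and Maff, or 4 of 11, against 7.51% of all 32851 windows. In Batf they began 47 bases before the deposited start and 98 before the RefSeq start, and in Fos 66 bases before the start that both give. The full element TGACGTCA, which contains TGACGT, was in 1 member window (Maff) against 1.79% of all windows, and TGACATCA was in those of Jun and Maff against 3.62%. The element TGAGTCA or TGACTCA was in 0 of 11 windows against 5.20% of all, and the CArG box bound by serum response factor in 0 against 1.63%. Elements more than 250 bases before a start were outside the search, so these counts do not show that a gene lacks the element. TGACGT and TGACATCA were added to the search after the sequences were seen. Batf and Fos share the 6-letter element, and a match of letters is no evidence of binding.

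**Figure D2:**
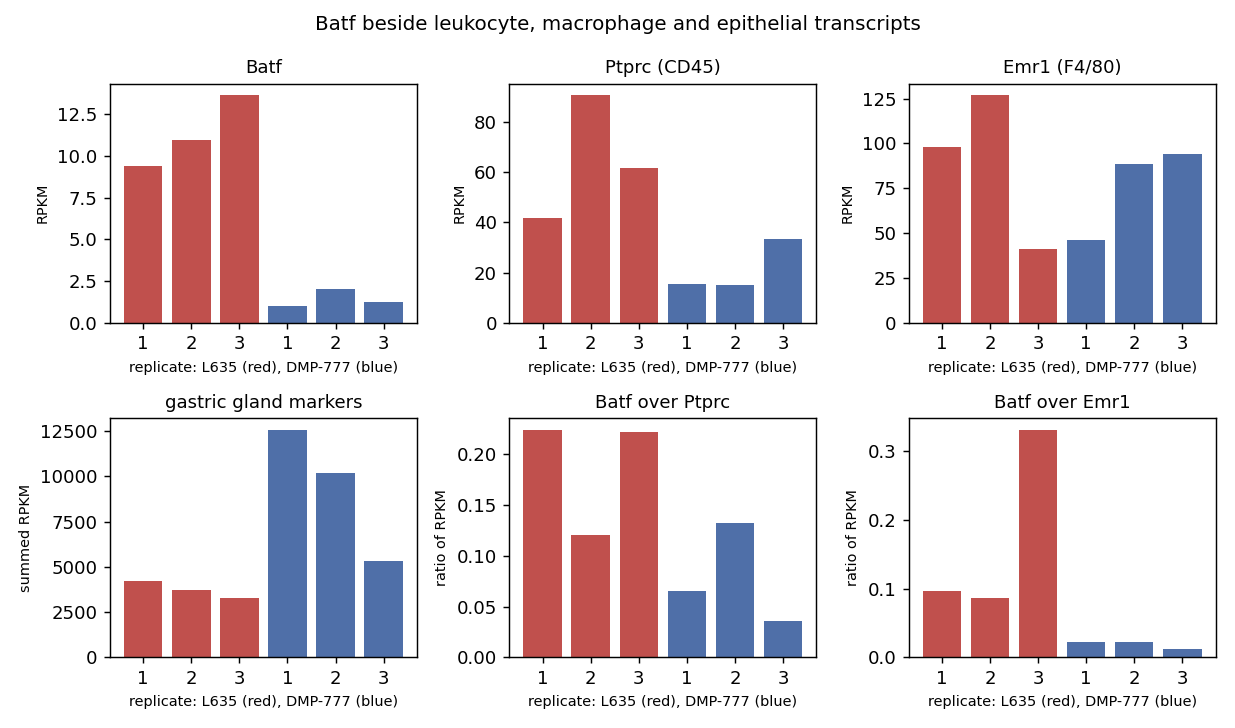
Bars give Batf, Ptprc and Emr1 in RPKM, the summed RPKM of the gastric gland markers, and Batf over Ptprc and over Emr1 as ratios, per library with L635 left of DMP-777. Batf over Emr1 is apart between the treatments, and Batf over Ptprc overlaps, with 0.121 in L635 replicate 2 and 0.132 in DMP-777 replicate 2.

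Other transcripts were apart between the treatments as well. Ptprc, which encodes the pan-leukocyte phosphatase CD45, was at 42.0, 90.9 and 61.7 RPKM in L635 and 15.3, 15.2 and 33.5 in DMP-777, with a difference on the log2 scale of 1.59 ± 0.38 (SE, adjusted p = 0.406 by limma). Taken relative to Ptprc, Batf was at 0.224, 0.121 and 0.222 in L635 and 0.0652, 0.132 and 0.0363 in DMP-777, so the groups overlapped. The mean log2 of this ratio differed by 1.42, and on the log2(RPKM + 1) scale the fold change of Batf exceeded that of Ptprc by 0.78. Taken relative to Emr1, Batf was at 0.0959, 0.0863 and 0.331 in L635 and 0.0217, 0.0226 and 0.0129 in DMP-777, which are apart. The mean log2 of that ratio differed by 2.92, and on the log2(RPKM + 1) scale the excess over Emr1 was 2.23. With the level of the general epithelial markers as a covariate the difference of Batf was 2.41. Gland transcripts were apart in the other direction, and their part in the difference of Batf was not tested.

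T cells and innate lymphoid cells are known to use Batf. Of 12 markers of these cells, 8 were above the floor in any library, and Cd3g, Cd5, Lck and Gata3 lay on the floor in all 6. Il7r was the only marker above the floor in all 6. It was at 8.998, 8.299 and 9.684 RPKM in L635 and 6.316, 10.36 and 5.94 in DMP-777. Its groups overlapped (log2 fold change 0.261, limma adjusted p = 0.847). Cd3e, a subunit of the T cell receptor complex, was at 2.14 RPKM in L635 replicate 1 and 8.16 in DMP-777 replicate 1 and on the floor in the other 4 libraries. The 12 markers summed to 84.7, 30.7 and 20.7 RPKM in L635 replicates 1, 2 and 3 and to 33.4, 41.8 and 29.3 in DMP-777, so the ranges overlapped. Cd2 was at 8.88, 7.68 and 1 RPKM in L635 and 1, 1.82 and 5.32 in DMP-777, and Cd4 at 53.2, 2.21 and 1 in L635 and 9.96, 17.9 and 9.03 in DMP-777 (limma adjusted p = 0.704 and 0.773). Cd3d, Cd3e and Cd3g were all on the floor in L635 replicate 3 and in DMP-777 replicate 3. B cell markers summed to between 10.7 and 20.4 RPKM in L635 and between 12.6 and 24.2 in DMP-777. Dendritic cell markers summed to between 239.7 and 662 RPKM in L635 and between 490 and 802 in DMP-777. Most of that sum in every library was Cd24a, at 312, 549 and 162 RPKM in L635 and 464, 650 and 305 in DMP-777. The markers Flt3, Zbtb46, Xcr1, Clec9a and Siglech reached at most 4.05 RPKM in any library. Macrophage markers summed to between 1423 and 2810 RPKM in L635 and between 1627 and 2846 in DMP-777. The complement gene C1qa was at 134, 48.4 and 31.8 RPKM in L635 and 98.3, 238 and 166 in DMP-777, and Cd68 at 243, 211 and 114 in L635 and 227, 329 and 282 in DMP-777 (limma adjusted p = 0.419 and 0.592). Mast cell markers summed to 1071, 80.8 and 11.2 RPKM in L635 and 208 to 410 in DMP-777. The part of these cell types in the difference of Batf was not tested.

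The FOS family supplies the partners that cannot pair with each other and need a JUN protein. Fos (chromosome 12) was the most abundant member by mean RPKM in both treatments, at 36.3, 90.1 and 130 RPKM in L635 and 61.1, 64.2 and 120 in DMP-777. The DMP-777 values lay within the range of the L635 values, and the log2 fold change was -0.05 ± 0.44 (SE), or -0.86 with the epithelial level as a covariate. Fosb (chromosome 7, 19302721 to 19310045), an inducible relative of Fos, was the most variable, at 3.83, 27.0 and 62.6 RPKM in L635 and 10.8, 8.91 and 18.3 in DMP-777. L635 replicates 2 and 3 were above all DMP-777 libraries and L635 replicate 1 was below them. Its difference of 0.64 ± 0.71 became -0.18 without L635 replicate 3 and 1.68 without L635 replicate 1.

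Fosl2 (chromosome 5, 32136472 to 32157831), the gene of FRA-2, differed little among the libraries. It was at 60.7, 44.0 and 41.8 RPKM in L635 and 51.2, 48.0 and 68.4 in DMP-777, and its log2 fold change was -0.19 ± 0.29. Fosl1 (chromosome 19, 5447703 to 5455945), the gene of FRA-1, had the lowest mean of the 10 in L635, at 1.07, 6.86 and 7.37 RPKM, and stood at 5.14, 8.43 and 3.08 in DMP-777. Only L635 replicate 1 came close to the floor. Summed over the 4 FOS genes, the level was 101.9, 168 and 242 RPKM in L635 and 128, 130 and 210 in DMP-777, so the groups overlapped.

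The JUN family carries the subunits that every AP-1 dimer of this kind needs. Jun (chromosome 4, 95049034 to 95052222) was at 28.0, 45.4 and 85.0 RPKM in L635 and 28.5, 57.2 and 42.4 in DMP-777, a log2 fold change of 0.21 ± 0.40. Junb (chromosome 8, 84976909 to 84978748), which often restrains Jun, was at 21.9, 35.1 and 37.7 RPKM in L635 and 11.3, 55.1 and 60.3 in DMP-777, a log2 fold change of -0.13 ± 0.52. DMP-777 replicate 1 was the lowest library and the other DMP-777 libraries the highest. Without DMP-777 replicate 1 the value of Junb was -0.88, and without DMP-777 replicate 3 it was 0.28.

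Jund (chromosome 8, 70697739 to 70700616), the JUN gene that is expressed most steadily in resting cells of many kinds, was at 5.88, 16.5 and 10.96 RPKM in L635 and 3.21, 10.1 and 7.56 in DMP-777. Its difference was 0.62 ± 0.50, and the groups overlapped. Jund has the highest GC content of the members (67.1% in its longest transcript), and a predicted gene overlaps it on the opposite strand, so that its reads may be shared. Its difference was 0.79 once a trend on GC content and length was taken out. The sum over the 3 JUN genes was 55.9, 97.0 and 134 RPKM in L635 and 42.9, 122 and 110 in DMP-777.

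Atf3 encodes a stress-induced bZIP factor that pairs with JUN proteins and often represses, and Maff encodes a small MAF protein, which binds DNA but lacks a transactivation domain. Atf3 (chromosome 1, 191170296 to 191183340) was at 17.5, 14.5 and 66.2 RPKM in L635 and 9.19, 24.1 and 11.8 in DMP-777. L635 replicate 3 stood above the other 5 libraries, which overlapped. The difference of Atf3 was 0.85 ± 0.53 and shrank to 0.19 without that library. Maff (chromosome 15, 79347541 to 79359072) was at 4.15, 3.71 and 8.81 RPKM in L635 and 1.36, 5.64 and 11.4 in DMP-777, a log2 fold change of 0.10 ± 0.60. Batf3, the relative of Batf that dendritic cells need and the neighbour of Atf3 at a distance of 61.4 kb, was at 11.7, 9.86 and 4.69 RPKM in L635 and 3.07, 5.92 and 14.0 in DMP-777 (log2 fold change 0.30, 95% interval -0.86 to 1.46, limma adjusted p = 0.872). Batf2 was at 4.84, 1 and 4.73 RPKM in L635 and 1.54, 10.9 and 2.12 in DMP-777 (log2 fold change -0.16, 95% interval -1.53 to 1.203, limma adjusted p = 0.943). The values of Batf3 and Batf2 overlapped between the treatments.

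**Figure D3:**
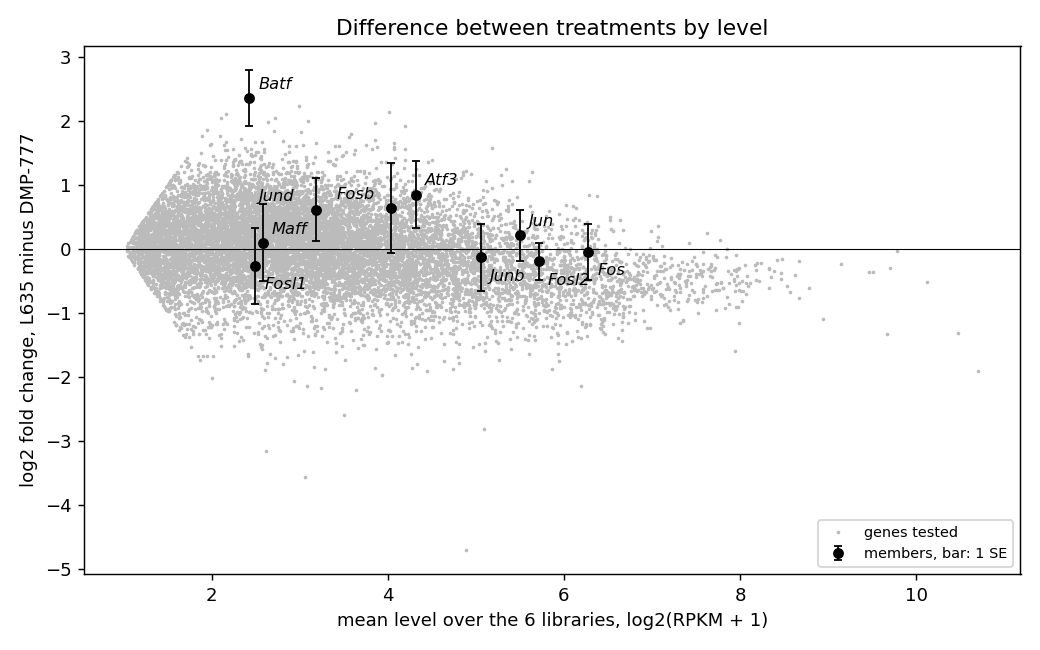
Each grey point is a tested gene, with its mean log2(RPKM + 1) over the 6 libraries on the x axis and its log2 fold change, L635 minus DMP-777, on the y axis. Black points are the 10 genes with bars of 1 SE; Batf lies at 2.37, and the others lie between -0.27 and 0.85.

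Of the 10 genes, 6 had a positive log2 fold change and 4 a negative one, with a median of 0.15, beside 50.2% positive and a median of 0.00 over all tested genes. The count of positive values ranged from 3 with the epithelial level as a covariate to 8 under quantile normalization, and with 1 library left out from 3 (L635 replicate 3) to 9 (L635 replicate 1). Jund and Atf3 stayed positive in all 16 alternatives and Batf in the 15 that tested it, while the sign of the other 7 genes changed in at least 1 of the 16. The genes were then ordered by level. By mean RPKM in L635 the order ran Fos, Jun, Fosl2, Atf3, Junb, Fosb, Batf, Jund, Maff and Fosl1, and the ranges of all neighbours in that order overlapped. In DMP-777 the order ran Fos, Fosl2, Jun, Junb, Atf3, Fosb, Jund, Maff, Fosl1 and Batf. There too neighbours overlapped, except that Batf lay below the lowest value of Fosl1, 3.08 RPKM.

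Single libraries held many of the extreme values. L635 replicate 3 held the highest value of Batf, Jun, Fos, Fosb and Atf3. DMP-777 replicate 1 held the lowest value of Batf, Junb, Jund, Atf3 and Maff, and L635 replicate 1 the lowest of Jun, Fos, Fosb and Fosl1. Without Batf, the mean log2 level was 3.69, 4.53 and 5.13 in L635 replicates 1, 2 and 3 and 3.67, 4.52 and 4.57 in DMP-777. Within a treatment, the pooled SD on the log2 scale was 1.39 for Fosb, 0.97 for Junb, 0.95 for Atf3 and 0.76 for Fos. Of 501 genes of like level around each, 98.8%, 97.4%, 95.4% and 96.6% had a smaller SD. Batf, at 0.28, was steady, with 5.59% of genes of like level below it, although 1 of its values is the floor and others lie close to it.

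**Figure D4:**
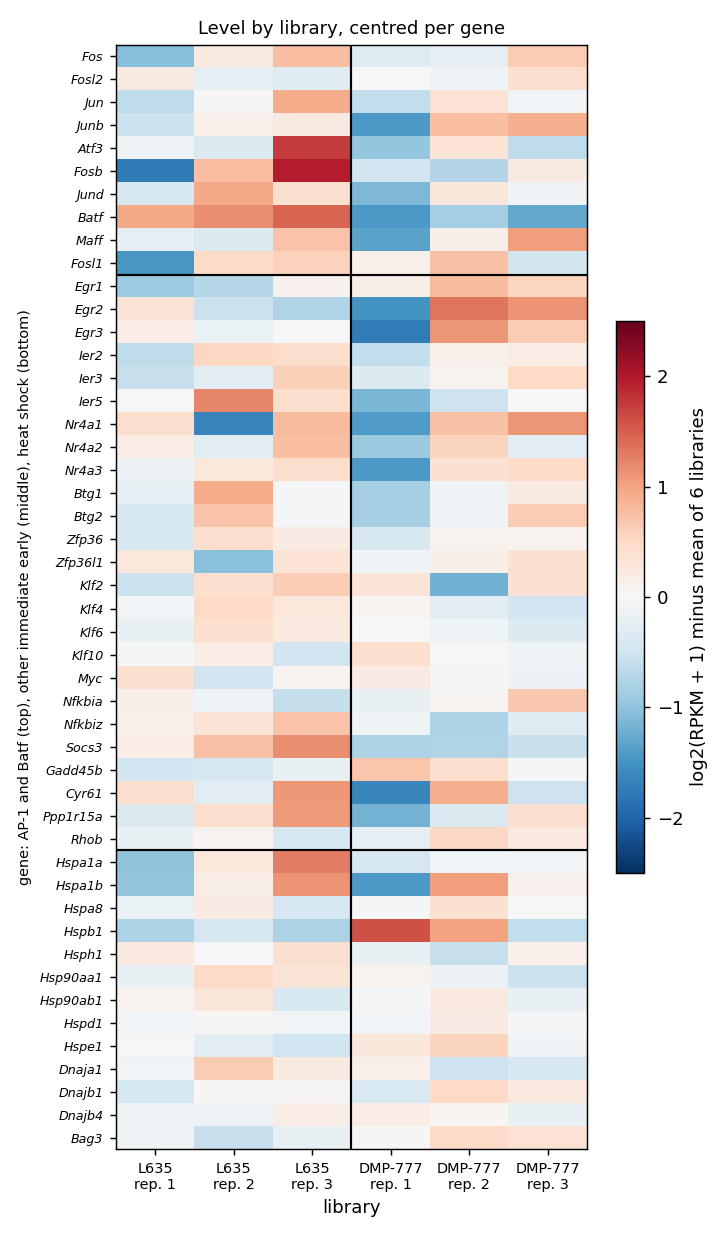
Colours give log2(RPKM + 1) minus the mean of the 6 libraries for Batf and AP-1 genes (top block), other immediate early genes (middle) and heat shock genes (bottom), with L635 libraries left of DMP-777. Fosb and Atf3 are highest in L635 replicate 3, and Batf is the gene of the top block with all 3 L635 libraries above all DMP-777 libraries.

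Stress genes were set beside these libraries. Hspa1a, the inducible HSP70 chaperone, was at 4.32, 11.9 and 24.9 RPKM in L635 replicates 1, 2 and 3 and at 7.00, 9.11 and 9.21 in DMP-777, so that L635 replicate 3 and L635 replicate 1 were its extremes as they were for Fos, Jun and Fosb (log2 fold change 0.37, limma adjusted p = 0.832). No other gene of the heat shock list had both of these extremes. Hspa1b and Hsph1 were also highest in L635 replicate 3, while Hspa8, Hsp90ab1 and Hspe1 were lowest there. Over the heat shock list, 5 of 13 genes were higher and 8 lower in L635 by their log2 fold change, the median was -0.04, and 0 passed (limma). The chaperone Hspb1 was at 1, 1.58 and 1 RPKM in L635 and 9.37, 5.95 and 1.24 in DMP-777, and the co-chaperone Bag3 at 20.5, 14.4 and 19.4 in L635 and 22.4, 31.3 and 28.5 in DMP-777 (limma adjusted p = 0.443 and 0.544). The part of the digestion in these levels was not tested.

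Immediate early genes outside AP-1 had 15 positive and 10 negative values, their median was 0.18, and 0 of 25 passed (limma). Egr1, a zinc finger factor induced through the same kinases as Fos, was at 31.3, 36.0 and 64.2 RPKM in L635 and 66.7, 103 and 87.0 in DMP-777. All its L635 libraries were below those of DMP-777, and the difference was -0.997 ± 0.33 on the log2 scale (95% interval -1.72 to -0.27, adjusted p = 0.414 by limma). Socs3, an inhibitor of cytokine signalling through STAT3, lay the other way at 10.3, 15.5 and 21.4 RPKM in L635 and 4.85, 4.96 and 5.78 in DMP-777, with 1.38 ± 0.40 (limma adjusted p = 0.409). Fos thus overlapped between the treatments while Egr1 and Socs3 were apart in opposite directions, although neither passed. Of the 25, 2 were entirely above (Socs3 and Nfkbiz) and 2 entirely below (Egr1 and Gadd45b). Over all tested genes, 7.25% were entirely above and 8.75% entirely below, so nothing is read from these counts.

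The inputs to AP-1 were counted in the same way. Of 20 MAP kinase and serum response factor genes, 11 had a positive and 9 a negative log2 fold change, the median was 0.03, and 0 passed (limma). Mapk3, which encodes the kinase ERK1, had -0.66 (95% interval -1.34 to 0.02) and Srf, the factor that drives Fos through its serum response element, -0.57 (-1.39 to 0.24), adjusted p = 0.497 and 0.622 by limma. Among 10 MAP kinase phosphatases, which switch these kinases off, 6 were positive and 4 negative with a median of 0.05, and 0 passed (limma). Dusp1 was abundant at 88.5, 211 and 142 RPKM in L635 and 110, 120 and 156 in DMP-777 (log2 fold change 0.12, limma adjusted p = 0.923). Dusp5 had 1.05 ± 0.63 and Dusp16 0.87 ± 0.47 (limma adjusted p = 0.584 and 0.547).

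Among bZIP genes outside the 10, 34 of 35 listed were found, 32 were tested, and 0 passed (limma). Their values were positive for 20 and negative for 12, with a median of 0.17. Atf4, the factor of the amino acid and endoplasmic reticulum stress response, was at 98.9, 76.5 and 65.1 RPKM in L635 and 153, 141 and 120 in DMP-777. All L635 libraries were below DMP-777, and the difference was -0.79 ± 0.30 (adjusted p = 0.435 by limma). Xbp1, of the unfolded protein response, was at 94.3, 69.5 and 52.9 RPKM in L635 and 91.8, 126 and 114 in DMP-777, with overlapping groups and a difference of -0.63 ± 0.31 (limma adjusted p = 0.506). Of these 32 genes, 0 had L635 entirely above DMP-777, and Atf4 and Cebpb were entirely below, beside 7.25% above and 8.75% below over all tested genes.

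**Figure D5:**
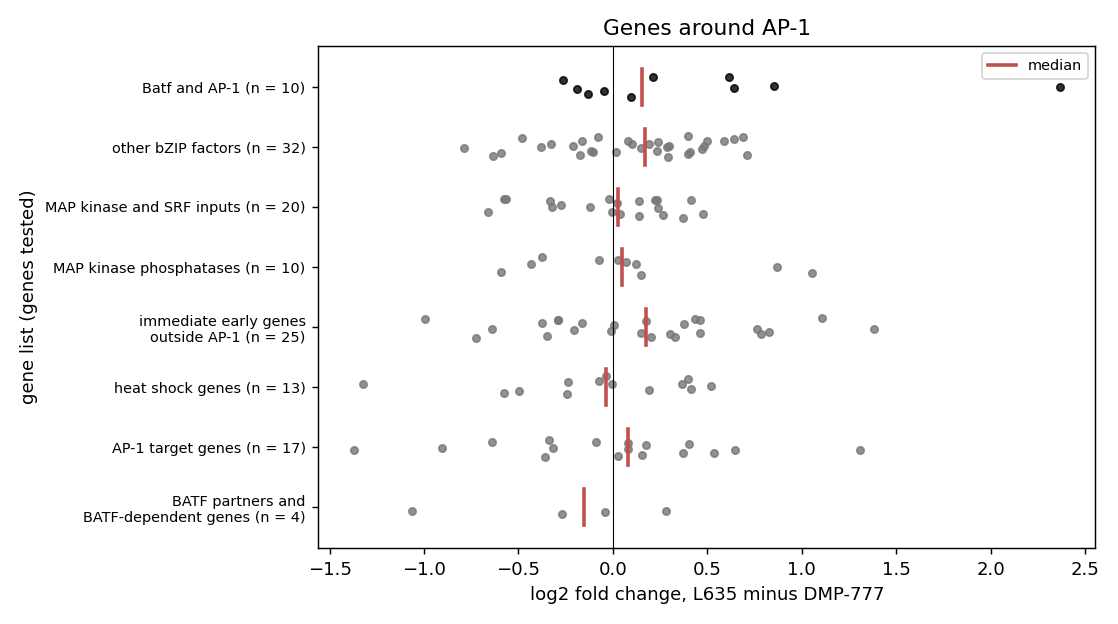
Points are log2 fold changes, L635 minus DMP-777, of the tested genes of each list, with the number tested in brackets and a red bar at the median. Medians lie between -0.15 and 0.18, and Batf, at 2.37, lies above all other genes of these lists.

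The list of genes driven through AP-1 sites in other settings came next. Of 20 listed, 17 were tested, 10 with a positive and 7 with a negative value, with a median of 0.08, and 0 passed (limma). Timp1, an inhibitor of matrix metalloproteinases, was at 2.06, 3.96 and 1 RPKM in L635 and 10.5, 4.16 and 7.85 in DMP-777, and the monocyte attractant Ccl2 at 38.4, 38.4 and 52.3 in L635 and 72.8, 124 and 58.4 in DMP-777. Both had L635 entirely below DMP-777 (limma adjusted p = 0.427 and 0.425). Of the 17, 0 were entirely above and 2 entirely below, beside 7.25% above and 8.75% below over all tested genes. The cytokine gene Tnf lay the other way, at 21.0, 8.6 and 20.0 RPKM in L635 and 3.0, 9.9 and 5.8 in DMP-777. Its groups overlapped (log2 fold change 1.31, limma adjusted p = 0.430).

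The partners of BATF were present in both treatments. Irf4 was at 21.4, 11.1 and 11.4 RPKM in L635 and 12.6, 16.7 and 23.2 in DMP-777, a difference of -0.27 on the log2 scale (95% interval -1.08 to 0.55, adjusted p = 0.829 by limma). Irf8 was at 21.6, 5.88 and 13.4 RPKM in L635 and 5.36, 12.8 and 26.6 in DMP-777, a difference of -0.04 (95% interval -1.24 to 1.16, adjusted p = 0.984 by limma). Neither partner was apart between the treatments as Batf was. Of the 11 partners and genes that need BATF in lymphocytes, only 4 were above the floor often enough to be tested, 1 positive and 3 negative with a median of -0.15, and 0 passed (limma). Among those not tested, the cytokine gene Il10 was at 6.53, 1 and 6.53 RPKM in L635 and on the floor in all DMP-777 libraries. Il17a, Il17f and Ctla4 were above the floor only in L635 replicate 1, at 3.90, 3.21 and 1.62 RPKM. Il21 was above it only in DMP-777 replicate 1, at 2.12, and Il23r in no library.

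Profiles over the 6 libraries were compared by the root mean square difference of centred log2(RPKM + 1), where 0 means the same shape. Nearest to Batf were Lrrc4 (0.33), Haus3 (0.40), Ankrd11 (0.45), Tma16 (0.49) and Trim56 (0.50). Lrrc4, a synaptic adhesion gene, was at 5.22, 5.47 and 8.85 RPKM in L635 and 1.08, 1 and 1 in DMP-777. Lrrc4 overlaps Snd1 and Ankrd11 a predicted gene on the other strand, and Haus3 overlaps Poln, so reads of each pair may be shared. The nearest member to Batf was Atf3, at 0.96, and Fos was at 1.33. Nearest to Fos were Abcg3 (0.19), Mfsd2a (0.22), Cry1 (0.25), Utp18 (0.27) and Hist1h1b (0.27), and of the members Jun (0.45). Jun was thus closer to Fos than any other member, and Batf was farthest from it. Distances from Batf include the treatment difference for which it was listed, so nothing is read from them.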

How the data were processed

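Per the labels' protocols, sorted-cell RNA was amplified (NuGEN Ovation) before single-end Illumina sequencing. The submitters' processing notes name FastQC, TopHat 1.4, SAMtools and the build mm9, and no quantification tool is stated there. The authors deposited normalized values, with no value below 1, which are taken here as RPKM. The unit is not written in the table and was recognised from its values, since value times exonic length falls on steps that differ between libraries. Deposited gene positions overlap GENCODE M21 (GRCm38) genes of the same identifier for 99.8% of 22268 genes. There were 0 columns of values left unused.

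Groups were read from the sample titles, whose numbers pair no samples. The treatments were set against each other by limma 3.58.1 (R 4.3.3; mean-variance trend, two-sided) on RPKM plus 1, log2 scale, over the 12102 genes above 1 in at least 3 libraries. The test was checked on simulated data. Fold changes of low genes are understated by the pseudocount and the floor. Members and lists were chosen with earlier results of these data known. Named genes are the 10 members, the 2 genes with the smallest p in each AP-1 related list and among macrophage and T cell markers, Irf4, Irf8, Batf2, Batf3, Egr1, Dusp1, Hspa1a, Emr1, Cd3e and Ptprc, and the 5 nearest profiles to Batf and to Fos. Some genes that this rule names are not reported here. Neighbours of Batf, Cebpb, Cd3d, Il7r, Tnf and untested BATF-dependent genes were named after their values were seen. So were the dendritic cell markers, Nfkbiz, Gadd45b and the heat shock genes Hspa1b, Hsph1, Hspa8, Hsp90ab1 and Hspe1. The planned comparison of protein sequences was not run. Alternatives covered pseudocount, filter, normalization, a covariate and each library left out. Batf relative to Ptprc and to Emr1 was added after seeing the data.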

Additional observations from a re-analysis of the deposited data

How the results depend on the processing

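With 3 libraries a group, depth known only as an estimate and a floor of 1, small differences of low genes cannot be seen. In all 16 alternatives 0 genes passed the adjusted threshold, and 622 to 1581 genes had an unadjusted p below 0.05 with 1 library left out (lowest, at 622, when DMP-777 replicate 2 was dropped, and 652 or 808 when L635 replicate 3 or L635 replicate 2 was), or 200 with the epithelial level as a covariate. With 1 library left out, 2506 to 3819 genes had groups that did not overlap, since fewer libraries overlap less, and 3 to 9 of the 10 genes had a positive log2 fold change, or 3 with the epithelial level as a covariate. The median of the 10 genes ranged from -0.25 to 0.50 over the processing alternatives and from -0.19 to 0.53 with 1 library left out. In the processing alternatives, some list medians moved beyond the spread between libraries. They were the heat shock genes under quantile normalization (0.23), the MAP kinase inputs under median centring (-0.061) and the AP-1 targets with the epithelial covariate (-0.34). With 1 library left out, the AP-1 targets ranged from -0.32 to 0.39 and the MAP kinase phosphatases from -0.32 to 0.22. Both were lowest without DMP-777 replicate 1, where both moved beyond that spread. For Batf, the difference was 2.23 to 2.54 with 1 library left out, 2.68 with the length and GC trend removed and 0.78 relative to Ptprc, all on the log2(RPKM + 1) scale. The log2 ratio of Batf to Ptprc itself differed by 1.42. The cause of these shifts was not tested. No paired analysis was possible because each title carries its own number and none recurs in both groups.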
